A study of Homo sapiens with 16 samples.

Results

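TXNIP and ARRDC4 are alpha-arrestin genes, and MLXIP, MLXIPL and MLX encode the transcription factors that switch both on when glucose is plentiful. With the related alpha-arrestins ARRDC2 and ARRDC3 they make 7 genes, of 19775 with a probe set of their own on the array. The members were all probe sets annotated to 1 of these genes alone, 17 of 54675. The TXNIP gene had 3 of them, MLX 6, MLXIP 4, and ARRDC2, ARRDC3, ARRDC4 and MLXIPL 1 each. Expression was measured in 8 established human lung cancer lines (H358, H460, H1437, H661, H23, A549, H1703 and A427). Each was grown on tissue culture plastic (2D), where the labels call the cells untreated, and on a thin Matrigel layer, a basement membrane extract, under medium that held dissolved Matrigel (3D). Density and growth media were similar in both, per the design text, and no other agent is named. There was 1 array for each line and culture, 16 in all. The glucose content of the medium and the time in culture are not known here.

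The genes were chosen by their 3D minus 2D differences on these arrays, of which ARRDC4 had the highest of all, so those differences, and any call or count made from them, are a description here and support nothing. Differences between the lines played no part in the choice and were tested.

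Alpha-arrestins are adaptor proteins that carry ubiquitin ligases of the NEDD4 family to membrane proteins. TXNIP also binds thioredoxin, and it promotes removal of glucose transporters from the cell surface, so that a cell that takes up much glucose makes more of a protein that limits uptake. MLXIP (MondoA) and MLXIPL (ChREBP) sense glucose 6-phosphate, pair with MLX, and bind paired E-boxes in the promoters of TXNIP and ARRDC4.

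The promoters of TXNIP and ARRDC4 are shown because these 2 genes had the highest differences among the members and are known targets of these factors. Each is the 250 bases before the RefSeq start in GRCh38.p14, written along the gene's strand. Capitals mark matches to a pair of E-box-like elements (CACGNG, 5 bases of any kind, then CNCGNG), to the E-box CACGTG, and to CCAAT or its reverse ATTGG, all searched on both strands.

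TXNIP, chr1:145996580-145996829, minus strand: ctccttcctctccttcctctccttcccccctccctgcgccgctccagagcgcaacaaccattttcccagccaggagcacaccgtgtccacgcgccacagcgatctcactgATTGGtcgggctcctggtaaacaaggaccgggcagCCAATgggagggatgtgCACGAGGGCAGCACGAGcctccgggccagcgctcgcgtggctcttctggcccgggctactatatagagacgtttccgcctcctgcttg
ARRDC4, chr15:97960453-97960702, plus strand: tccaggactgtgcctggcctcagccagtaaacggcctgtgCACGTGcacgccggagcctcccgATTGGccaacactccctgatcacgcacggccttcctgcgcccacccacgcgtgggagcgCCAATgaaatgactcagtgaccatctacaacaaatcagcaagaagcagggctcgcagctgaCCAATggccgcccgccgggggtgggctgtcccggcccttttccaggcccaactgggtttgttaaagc

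The TXNIP promoter held the paired element from 88 to 72 bases before the start, as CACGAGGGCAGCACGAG, with CCAAT matches at 140 to 136 and 105 to 101 bases. Of 35116 promoter windows of this length 0.424% held a match to the paired element. The ARRDC4 window held CACGTG at 210 to 205 bases before the start and 3 CCAAT matches, and no match to the paired element as spelled here. CACGTG was in 6.34% of all windows and CCAAT in 32.0%. All 7 members had a window, 10 in all, since some genes have 2 starts. The window of the second TXNIP start held none of the motifs, and among the other members MLX held CACGTG once. The windows of ARRDC2, ARRDC3, MLXIP and MLXIPL held neither E-box pattern.

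All values are log2 ratios of a probe set to its own reference, so 0 is near the middle of the 16 arrays and a difference of 1 is 2-fold. The arrays measure a whole culture, in which a change in every cell and a change in some of the cells cannot be told apart. Epithelial markers were measurable (6 of 6 not dim), as were 4 of 5 lung epithelial, 6 of 6 fibroblast, 4 of 6 leukocyte and 2 of 5 endothelial markers. The means of the epithelial markers ran from -4.75 to 4.53 over the lines in 2D, and 0 markers of any of these types were called between the cultures by limma. The ratios do not show whether a marker is present or absent. The 18S rRNA control was lower in 3D in 8 of 8 lines, by a mean of -1.15 ± 1.06 (SD, n = 8 lines), from -0.08 in H1437 to -3.45 in H23.

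TXNIP was higher in 3D than in 2D in every line. Averaged over its 3 probe sets, its level in 2D ran from -4.01 in A427 through a median of -1.59 to 4.53 in H358. In 3D the lowest was -2.94, again in A427, the median 1.78 and the highest 6.50, again in H358. The 2 cultures overlapped widely, because the lines differed from each other by far more than the cultures did. Within lines, the 3D minus 2D difference was 1.96 in H358, 1.86 in H1437, 1.74 in H460, 1.52 in A549, 1.14 in H23, 1.07 in A427 and 0.54 in H1703. H661 stood apart at 5.82, going from -2.72 in 2D to 3.10 in 3D. The mean was 1.96 ± 1.63 (SD, n = 8 lines), a 3.89-fold difference. Without H661 it was 1.41.

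The 3 TXNIP probe sets gave mean differences of 1.98, 1.89 and 2.00 and were each higher in 3D in 8 of 8 lines. H661 was the highest on each, at 6.81, 4.28 and 6.37. They lay furthest apart in H661 and in A427. In A427 the difference was 0.01 on 201008_s_at, 2.08 on 201009_s_at and 1.12 on 201010_s_at, and in H1703 it was 0.57, 0.97 and 0.09. In H358, H460 and H1437, where TXNIP was high, the 3 probe sets lay between 1.52 and 2.04.

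**Figure D1:**
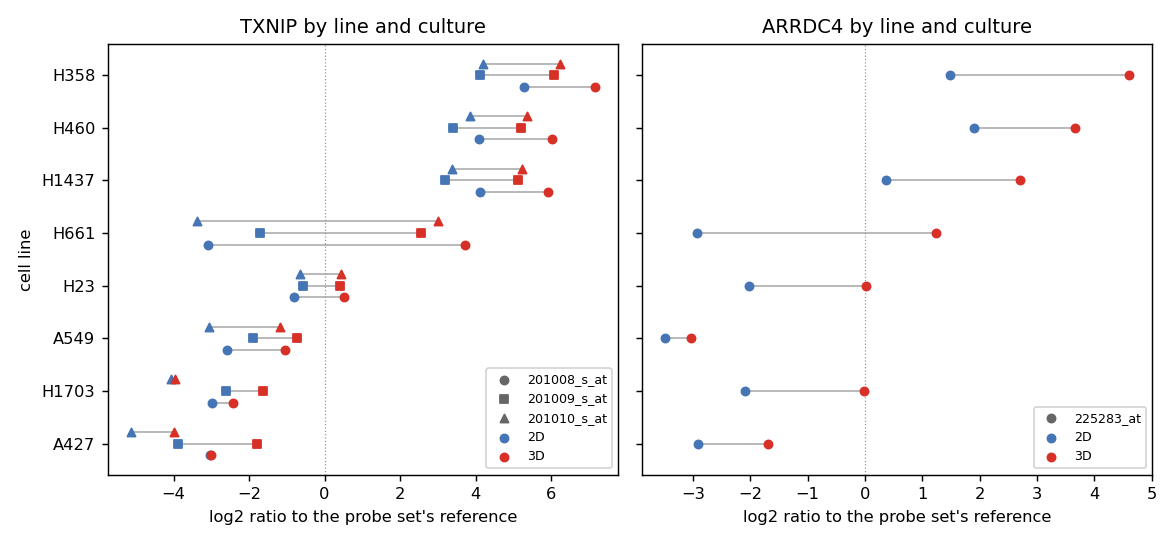
TXNIP (3 probe sets) and ARRDC4 (1 probe set) in each line, with 2D in blue and 3D in red; the x axis is the log2 ratio to the probe set's own reference, each point is 1 array, and each line joins the 2 cultures of a cell line. H358, H460 and H1437 lie above the other lines in 2D for both genes, and H661 has the longest join on each probe set.

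ARRDC4, a paralog of TXNIP, was also higher in 3D in every line. Its 2D level ran from -3.48 in A549 through a median of -2.06 to 1.90 in H460, and its 3D level from -3.03 in A549 through 0.63 to 4.61 in H358. The differences were 4.15 in H661, 3.13 in H358, 2.33 in H1437, 2.07 in H1703, 2.04 in H23, 1.75 in H460, 1.22 in A427 and 0.45 in A549. A549 was the only line under 1 on the log2 scale. The mean was 2.14 ± 1.13 (SD, n = 8 lines), a 4.42-fold difference, and 1.86 without H661. Of 14113 genes ARRDC4 had the highest mean difference and TXNIP ranked 3.

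The 2 genes differed in which lines moved least. H1703 had the smallest TXNIP difference and a large one for ARRDC4 (0.54 and 2.07), while A549 had the smallest ARRDC4 difference and a larger one for TXNIP (0.45 and 1.52). H661 was the highest for both. Over the 8 lines the differences of the 2 genes had a Pearson's r of 0.74 and a Spearman's rho of 0.64, given as a description. Without H661 the r was 0.27 (7 lines), and without H661 and H1703, the 2 lines farthest from the median for TXNIP, it was 0.53 (6 lines). The value of r thus moves with single lines. It was computed for each of the 21 pairs of members, and the 2 genes share arrays and normalisation.

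**Figure D2:**
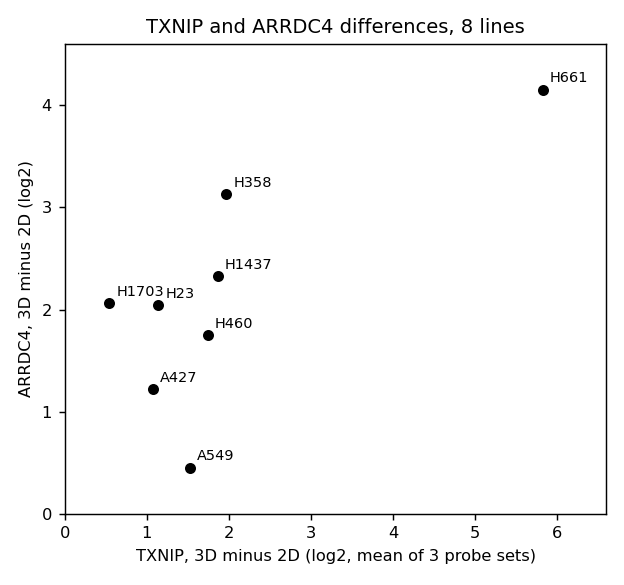
The 3D minus 2D difference of TXNIP (x axis, log2, mean of 3 probe sets) against that of ARRDC4 (y axis, log2), with 1 point per line. All 8 points lie above 0 on both axes, H661 lies alone at 5.82 and 4.15, and A549 and H1703 each have a low value for 1 gene.

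The 18S rRNA level, which was lower in 3D in all lines, had an r near 0 with both differences over the 8 lines (0.03 with TXNIP and -0.06 with ARRDC4). H23, with the largest 18S difference (-3.45), had 1.14 for TXNIP and 2.04 for ARRDC4, and H1437, with the smallest (-0.08), had 1.86 and 2.33. With the 18S level as a covariate the mean differences were 2.00 for TXNIP and 2.07 for ARRDC4. In that fit limma called 0 of the member probe sets and 0.00362% of all probe sets. Since 18S fell with the culture in every line, its share in the differences cannot be told apart from that of the culture.

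The order of the lines was nearly the same for both genes. By the mean of its 2 arrays, TXNIP ran H358 (5.51), H460 (4.66), H1437 (4.49), H661 (0.19), H23 (-0.11), A549 (-1.75), H1703 (-2.95) and A427 (-3.47). The gap of 4.30 between H1437 and H661 was the widest, against a residual SD of 1.15 for an array after line and culture were taken out. H358, H460 and H1437 lay within that SD of their neighbours among the 3, as did H661 and H23, and H1703 and A427. For ARRDC4 the order was H358 (3.04), H460 (2.78), H1437 (1.53), H661 (-0.85), H23 (-0.999), H1703 (-1.06), A427 (-2.30) and A549 (-3.25), with the widest gap again between H1437 and H661 (2.37, residual SD 0.80). H358 and H460 lay within that SD of each other, as did H661, H23 and H1703 in turn. The lines fell into high and low sets on these genes, so no correlation of their levels across lines is given as a relation.

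The lines differed in TXNIP by more than the arrays of a line disagreed (limma moderated F test over all probe sets, adjusted p = 0.000114, 4.86e-06 and 4.08e-05 for its 3 probe sets), and likewise in ARRDC4 (adjusted p = 4.73e-05). Such a line effect was called for 80.0% of all probe sets and for 11 of the 15 member probe sets that were not dim, a share close to the background. The SD of the line means of TXNIP was 3.14 to 3.91 on its probe sets, above 98.9% to 99.7% of all probe sets, and that of ARRDC4 was 2.33, above 96.2%.

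ARRDC3 and ARRDC2, the other alpha-arrestins among the members, had smaller values between the cultures. ARRDC3, an adaptor for the NEDD4 ligases at the beta-adrenergic receptor, ran in 2D from -0.90 in H1437 through a median of -0.37 to 0.82 in H1703. In 3D it ran from -0.82 through 0.38 to 2.07 in the same lines. Its 3D minus 2D difference was above 0 in 8 of 8 lines but split them: it was 1.29 in H661, 1.26 in H1703, 0.80 in A549 and 0.65 in A427, against 0.17 in H23, 0.15 in H358, 0.08 in H1437 and 0.01 in H460. The mean was 0.55 ± 0.53 (SD, n = 8 lines), a 1.46-fold difference. By the mean of both cultures H460 and H1437, which held much TXNIP, were the lowest lines for ARRDC3, whereas H358 was high for both. A427, the lowest line for TXNIP, came next for ARRDC3. It lay 0.28 above H460, within the residual SD of 0.37. The lines differed in ARRDC3 (limma F test, adjusted p = 0.000993).

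ARRDC2 differed far more between lines than between cultures. H460 stood alone at 2.30 in 2D and 2.20 in 3D, the next line being A427 in 2D (0.26) and H23 in 3D (0.45). H358, the highest line for TXNIP and ARRDC4, was the lowest for ARRDC2, at -1.30 and -1.05. The difference between the cultures was 0.13 ± 0.19 (SD, n = 8 lines), from -0.20 in A549 to 0.33 in H1437. The lines differed (limma F test, adjusted p = 1.01e-06), and 6 of the 7 gaps between neighbours exceeded the residual SD of 0.13, the exception being A427 and H23.

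**Figure D3:**
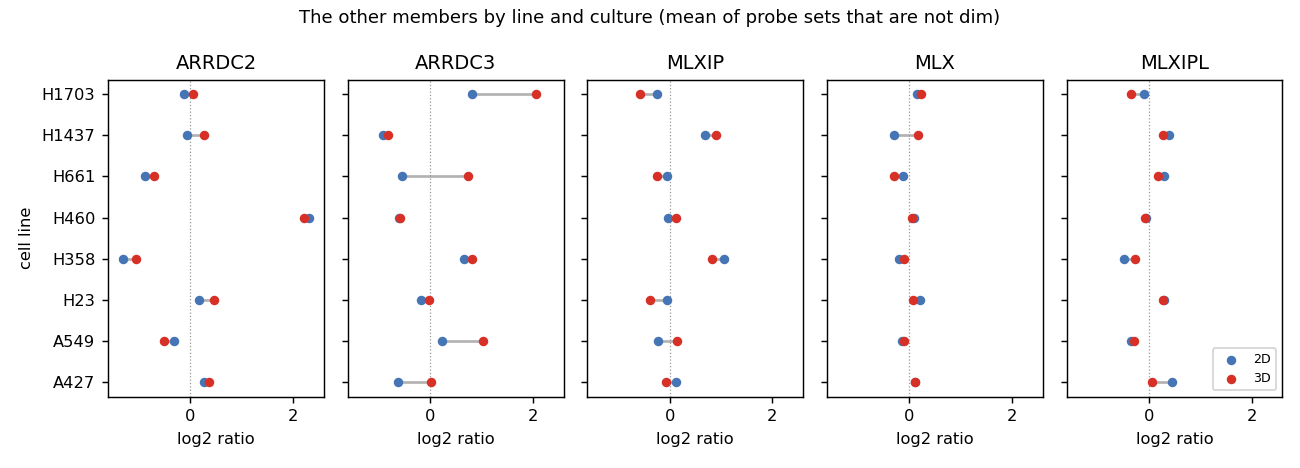
The 5 other members in each line, with 2D in blue and 3D in red; the x axis is the log2 ratio to the probe sets' own references (mean of the probe sets that are not dim) and is the same in every panel. ARRDC2 is high in H460, ARRDC3 parts between the cultures in H661, H1703, A549 and A427, and MLXIP is high in H358 and H1437.

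The regulators themselves differed little between the cultures. MLXIP, the glucose sensor of most tissues outside the liver, had a difference of -0.07 ± 0.27 (SD, n = 8 lines) over its 2 probe sets that were not dim, from -0.34 in H1703 to 0.37 in A549, and was lower in 5 lines. Its level was 1.05 in H358 and 0.70 in H1437 in 2D, and 0.83 and 0.91 in 3D. The other 6 lines lay between -0.25 and 0.13 in 2D and between -0.58 and 0.15 in 3D. Thus H358 and H1437 did not overlap with the rest, and the gap below them (0.75) exceeded the residual SD of 0.19 (limma F test of the lines, adjusted p = 0.000842 and 0.00103 for the 2 probe sets). H460, the third line with high TXNIP, had an MLXIP level of -0.03 in 2D and 0.13 in 3D. By the mean of both cultures it ranked 3 (0.05), below that gap and only 0.02 above A427, within the residual SD. The 2 dim probe sets of MLXIP had means of 0.04 and 0.06 and went into no fit.

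MLX, the partner that both sensors need, had a gene mean of 0.04 ± 0.19 (SD, n = 8 lines) between the cultures. Its 6 probe sets had means from -0.10 to 0.21. H1437 had the highest difference on 6 of 6 probe sets and on the gene mean (0.47), and without it the gene mean changed sign, to -0.02. Between lines MLX was even: the gene means of the lines spanned 0.40, no gap between neighbours exceeded the residual SD of 0.14, and 2 of its 6 probe sets had a called line effect (limma F test, adjusted p = 0.0372 and 0.0472).

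MLXIPL, the sensor best known from liver, had a difference of -0.07 ± 0.19 (SD, n = 8 lines) and was lower in 6 lines. Its level in 2D ran from -0.48 in H358 through 0.12 to 0.44 in A427, and in 3D from -0.34 in H1703 through -0.01 to 0.28 in H1437. H358, where TXNIP and ARRDC4 were highest, was the lowest line by the mean of both cultures (-0.37). A549, the lowest line for ARRDC4, lay only 0.06 above it (-0.32), within the residual SD, so the 2 lines cannot be ordered. H1437, H23, A427 and H661 lay within the residual SD of 0.13 of their neighbours at 0.33 to 0.24, with a gap of 0.30 below them (limma F test of the lines, adjusted p = 0.00721).

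**Figure D4:**
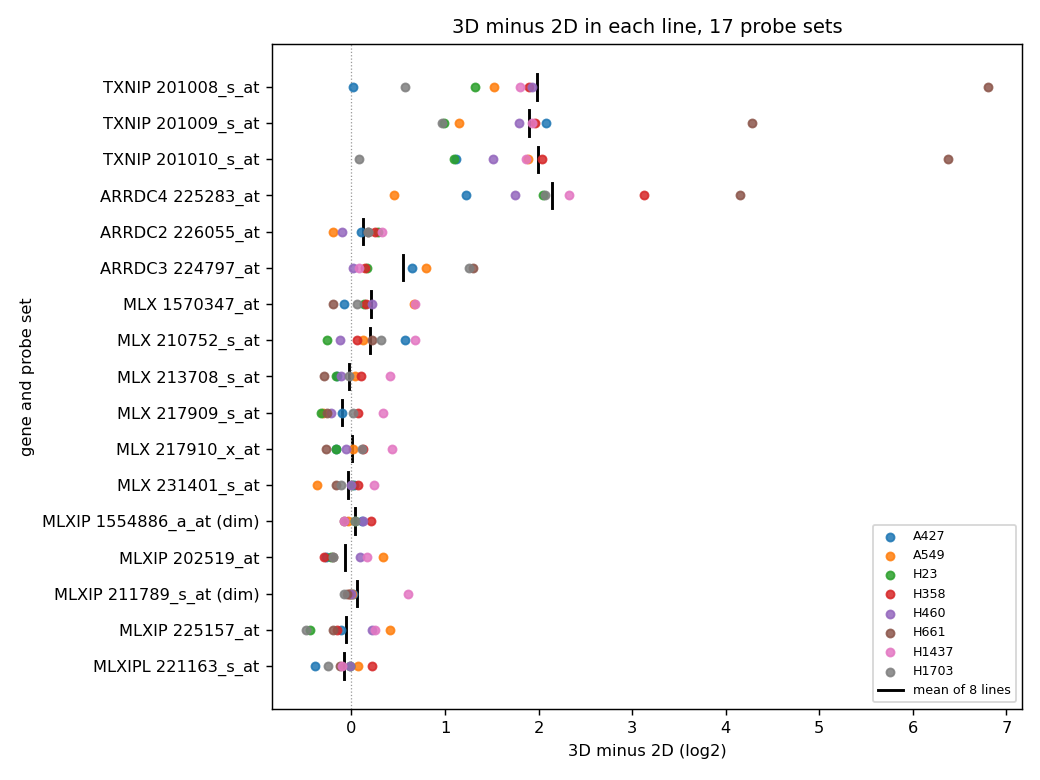
The 3D minus 2D difference (x axis, log2) of each of the 17 member probe sets (y axis), with 1 point per line coloured by line and a black bar at the mean of the 8 lines. The TXNIP and ARRDC4 rows lie right of 0 with H661 far to the right, ARRDC3 reaches 1.29, and the rows of ARRDC2, MLX, MLXIP and MLXIPL lie between -0.48 and 0.68.

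In the fit over all probe sets 8.18% were called changed between the cultures, made up of 2.96% higher and 5.22% lower in 3D. Of the 15 member probe sets that were not dim 3 were called higher and 0 lower by limma (5 had an unadjusted p under 0.05). They were ARRDC4 and the TXNIP probe sets 201009_s_at and 201010_s_at. Since this contrast chose the members, nothing is read from that count. Of the 15 probe sets 5 were above 0 in 8 of 8 lines, which held for 3.47% of all probe sets and, by gene means, for 3.08% of all genes.

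Genes around the pathway were taken from 10 lists, in which 119 of 140 genes could be tested. The lists were chosen with earlier results of these data known, so their calls and p-values are a description. Of the 119 tested genes 16 were called higher in 3D, 9 of them in the hypoxia response list, and 1 lower. Of all 14113 genes 1.97% were called higher, 4.12% lower and 6.09% either way. Calls were lost over all genes and in the lists alike when single lines were left out. The listed count was 16 without A427 (6.94% of all genes called), 15 without H1437 (5.95%), 9 without A549 (2.50%), 9 without H661 (2.08%), 7 without H23 (1.44%), 5 without H358 (0.879%), 2 without H460 (0.539%) and 1 without H1703 (0.120%). With the 18S level as a covariate limma called 0 of the listed genes (20 at an unadjusted p under 0.05) and 0.00% of all genes.

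Other glucose-induced targets of the MLX factors were near 0 between the cultures. With limma 0 of 19 tested genes passed (4 at an unadjusted p under 0.05), and their median difference was -0.0144, beside -0.00624 over all genes. The share of all genes at that unadjusted level is not given, so nothing is read from such counts. The lipogenic regulator THRSP had 0.24 ± 0.17, above 0 in 8 of 8 lines (adjusted p by limma 0.0758). The triokinase gene TKFC had 0.31 ± 0.37 (adjusted p = 0.150), the zinc finger repressor KLF10 0.39 ± 0.50 (adjusted p = 0.154) and thioredoxin reductase TXNRD1 -0.22 ± 0.27 (adjusted p = 0.174). All errors in this and the next paragraphs are SDs over the 8 lines.

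In the MYC, MAX and MXD network, which shares the E-box and, for some of its proteins only, the partner MLX, 2 of 9 genes rose and 1 fell. The repressor MXI1 rose by 0.81 ± 0.49 (limma, adjusted p = 0.0227, higher in 7 lines), and MXD1 rose by 0.58 ± 0.42 (adjusted p = 0.0433, higher in 7 lines), with 0.79 and 0.37 on its 2 probe sets. MGA, a MAX partner, fell by 0.46 (SD 0.22, adjusted p = 0.0213, lower in 8 lines), although its 4 probe sets ran from -1.23 to 0.01. MXI1 and MGA were called in 10 of 16 and 10 of 17 alternatives, MXD1 in 4 of 17. MNT had 0.15 ± 0.21 (adjusted p = 0.275).

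Genes of glucose uptake and glucose 6-phosphate supply gave 1 call among 16. The transporter SLC2A10 rose by 1.14 ± 0.93, with all 8 lines above 0 (adjusted p by limma 0.0420, called in 5 of 15 alternatives). SLC2A1, the main basal glucose transporter, had 1.24 ± 1.48 and was not called (adjusted p = 0.109). Its differences were 4.40 in H661, 2.36 in H1703, 1.22 in A549, 0.75 in H358, 0.59 in A427, 0.54 in H1437, 0.23 in H23 and -0.13 in H460. H661 was therefore the highest line for SLC2A1 as for TXNIP, ARRDC4 and ARRDC3. Glucose phosphate isomerase GPI had 0.67 ± 0.58 (adjusted p = 0.0538) and the phosphoglucomutase PGM2 -0.24 ± 0.17 (adjusted p = 0.0734).

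The thioredoxin system, which TXNIP inhibits, had 0 of 11 genes past the limma threshold (3 at an unadjusted p under 0.05) and a median of -0.11. TXN2, the mitochondrial thioredoxin, had -0.25 ± 0.22 (adjusted p = 0.0950), the peroxiredoxin PRDX1 -0.22 ± 0.22 (0.134), and TXN, the cytosolic thioredoxin, -0.16 ± 0.25 (0.282). Of 3 other arrestin genes 0 were called (0 at an unadjusted p under 0.05), with ARRB1 at 0.27 ± 0.40, ARR3 at 0.10 ± 0.25 and ARRDC1 at 0.05 ± 0.35. Of the 9 NEDD4 family ligases, partners of the alpha-arrestins, 0 were called (1 at an unadjusted p under 0.05). NEDD4L had 0.28 ± 0.23 (adjusted p = 0.0784), SMURF1 -0.16 ± 0.16, SMURF2 -0.29 ± 0.44 and WWP1 0.22 ± 0.41. Probe sets of the same gene differed in sign, from -0.16 to 0.88 for NEDD4L, -0.41 to 0.12 for SMURF1 and -0.88 to 0.27 for SMURF2.

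AMPK, an energy sensor that marks TXNIP for degradation, and its activator LKB1 had 0 of 11 genes called by limma (3 at an unadjusted p under 0.05). The catalytic subunits PRKAA1 and PRKAA2 had 0.25 ± 0.21 and 0.24 ± 0.24, PRKAG2 -0.23 ± 0.21 and CAB39 -0.17 ± 0.15. FOXO factors and their targets, among which TXNIP is often counted, had 3 of 17 genes called, all higher, and a median of 0.29. FOXO1 rose by 0.62 ± 0.36 (adjusted p = 0.0277, higher in 8 lines), TRIB1 by 0.73 ± 0.52 (adjusted p = 0.0314, higher in 8 lines) and the cyclin CCNG2 by 0.62 ± 0.50 (adjusted p = 0.0464, higher in 7 lines). The 5 CCNG2 probe sets ran from 0.02 to 0.89. BCL6 had 0.68 ± 0.74 (adjusted p = 0.0950). FOXO1 was called in 7 of 16 alternatives, TRIB1 in 8 of 16 and CCNG2 in 4 of 17.

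Among the glucocorticoid receptor and its targets, a group that in many cells includes TXNIP, 1 of 9 genes was called. It was CEBPD, which rose by 0.86 ± 0.73 (limma, adjusted p = 0.0468, higher in 8 lines, called in 4 of 17 alternatives). KLF9 had 0.59 ± 0.52 (adjusted p = 0.0554), ERRFI1 0.45 ± 0.62 and the receptor NR3C1 0.14 ± 0.23. The 3 KLF9 probe sets ran from 0.04 to 1.19. The hypoxia response list had the most calls, 9 of 17, all higher, with a median of 0.88. The mitophagy receptor BNIP3L rose by 1.18 ± 0.39 (adjusted p = 0.0142), the oxidase ERO1A by 0.88 ± 0.40 (0.0179), the histone demethylase KDM3A by 0.85 ± 0.44 (0.0187) and the glycolytic kinase PGK1 by 0.73 ± 0.37 (0.0187), each in 8 of 8 lines. These 4 were called in 14 of 16, 14 of 17, 11 of 16 and 13 of 17 alternatives. The other 5, named after their values were seen, were PDK1 (1.24), BNIP3 (1.26), P4HA1 (1.11), ANKRD37 (1.03) and PFKFB4 (0.59). Of the 17 genes 15 had a mean above 0 and 2 below. Those below were ADM (-0.48) and DDIT4 (-0.35), also named after their values were seen and not called.

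**Figure D5:**
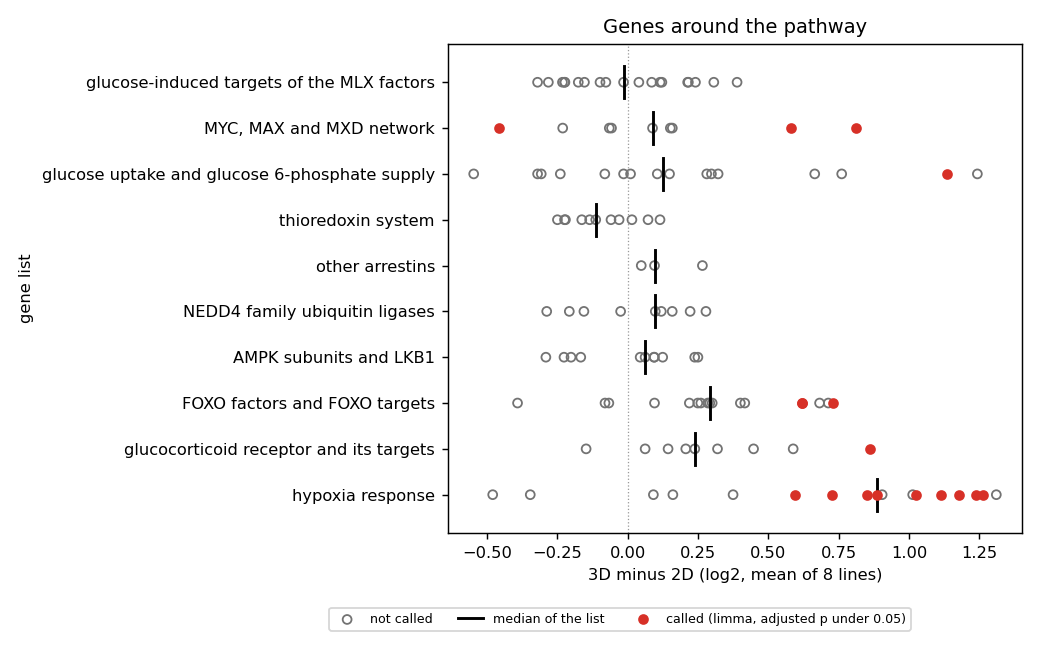
The 3D minus 2D difference (x axis, log2, mean of 8 lines) of each tested gene in the 10 lists (y axis), without the 7 members. Filled red points were called by limma at an adjusted p under 0.05 over all genes, open points were not, and the black bar is the median of the list, which is -0.01 for glucose-induced targets and 0.88 for the hypoxia response.

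The genes whose levels were most like those of TXNIP over the 16 arrays were FRMD4B (Pearson's r 0.93), PRDX2 (0.91), SELENOP (0.91), ARRDC4 (0.91) and TMEM59 (0.89). For ARRDC4 they were KIAA1958 (0.92), TXNIP (0.91), OGFOD3 (0.90), SELENOP (0.88) and RIT1 (0.86). TXNIP and ARRDC4 were among each other's 5 nearest of 14113 genes, and SELENOP, a secreted selenium carrier, was near both. The arrays come in pairs from 8 lines that fall into high and low sets, which all these values share. Over the 8 differences between the cultures the nearest genes were others. For TXNIP they were DDAH1 and GAPDH (both 0.97), GSX2 (0.97), EPHA5-AS1 (0.97) and LINC01549 (0.96), where H661 weighs most, and for ARRDC4 ETFRF1 (0.98), KMT2E (0.97), COPB1 (0.96), RAB11FIP3 (0.95) and EBLN2 (0.95).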

How the data were processed

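RNA of 8 lung cancer lines in 2 cultures was hybridised to U133 Plus 2.0 arrays of Affymetrix, 1 array per line and culture, per the labels' protocols. The deposited values are log2 ratios; the sources used here do not name their software, probe summary or normalisation. In the deposited values the linear median over the arrays is 1 (log2 within 0.001 of 0) for 34727 of 54675 probe sets, so a probe set is read against its own reference. The rest have a median below 1 and are called dim. Because every probe set has its own reference, levels can be compared between arrays and not between genes. Arrays give no read depth, and the number of arrays limits the precision.

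Probe sets were named from the platform annotation, with symbols updated through gene identifiers in the RefSeq table of GRCh38.p14. Of all probe sets 41097 had 1 gene, 1801 several and 11777 none. The model (lmFit, then eBayes with a variance trend; limma 3.58.1, R 4.3.3) had line and culture as terms and covered 27631 probe sets that had 1 gene and were not dim. A second fit used 14113 genes, each as the mean of those probe sets. Calls are at an adjusted p under 0.05 (Benjamini-Hochberg, all features of the fit). Counts at an unadjusted p under 0.05 are given without the share of all features, so nothing is read from them. A moderated F test of the line terms asked whether lines differ. The same line in both cultures is the pair, and 16 of 16 arrays correlated best with their own line (Pearson's r 0.777 to 0.927 between them). With 1 array per line and culture, p-values of the culture contrast measure the spread of the differences over lines. Those of the F test set the lines against the disagreement between the arrays of a line, with the mean culture difference taken out. A value within 1 line has no replicate check.

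The members and the gene lists were chosen with earlier results of these data known. From each list the text names up to 4 genes with the smallest p, and for TXNIP and ARRDC4 the 5 genes with the highest Pearson's r over the 16 arrays and over the 8 differences. Any other listed gene was named with its value already known. The steps were tested on simulated data for the culture contrast over 27631 probe sets, where the share found was 35.8% at 1.5-fold, 73.1% at 2-fold and 97.0% at 4-fold. Alternatives were no filter on dim probe sets, a filter at the 40th percentile of the mean, centring each array, quantile normalisation, no pairing, the 18S rRNA level as a covariate, no variance trend, leaving out probe sets of suffix s or x, the probe set with the highest mean in place of the gene's mean, and leaving out each line.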

Additional observations from a re-analysis of the deposited data

Results flagged for a closer look

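A line was picked out where its distance to the nearest other line divided by the whole range of the 8 lines, exceeded Dixon's critical value, which chance gives in about 1 in 20 groups. For the members 51 groups were examined, and for the named genes of the lists 38. H661 was picked out in the 3D minus 2D difference of all 3 TXNIP probe sets, at 6.81 against 1.93 for the next line on 201008_s_at, 4.28 against 2.08 on 201009_s_at and 6.37 against 2.04 on 201010_s_at. These differences chose the members and the 3 probe sets report 1 gene, so they are 1 description and no separate support. H460 was picked out for ARRDC2 in both cultures, at 2.30 in 2D and 2.20 in 3D. On the dim MLXIP probe set 211789_s_at it was H358 in 2D (0.41) and H1437 in the difference (0.60). Among the named genes of the lists, H661 was picked out for the difference of THRSP (0.62), H1437 for ARR3 (0.64), and H460 for PRKAA1 (0.71) and NR3C1 (0.66).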

How the results depend on the processing

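Each member gene's mean difference between the cultures moved by less than 1 SD in every alternative run, although small means changed sign: MLX, 0.04 in the report, was -0.02 without H1437 and -0.10 with the probe set of the highest mean, and MLXIP, -0.07 in the report, was 0.03 with the 18S covariate. Quantile normalisation gave 1.67 for TXNIP and 1.79 for ARRDC4. Leaving out each line gave 1.41 to 2.16 and 1.86 to 2.38, and 2 to 4 called member probe sets, 9 to 12 with a line effect and 1 to 16 called listed genes. The count of called member probe sets, 3 in the report, was 2 with no filter, with each array centred and without a variance trend. In each of these 201010_s_at of TXNIP was not called. Among the runs that left out a line, 201010_s_at was called only without H661. The filter at the 40th percentile ranks probe sets by the mean log2 ratio to their own reference and not by signal. The choice of the probe set with the highest mean does the same. The count was 1 with that filter, which removes ARRDC4 and under which 201010_s_at was not called. The count was also 1 when probe sets of suffix s or x were left out, which removes TXNIP. That run left 5 of 6 with a line effect in place of 11 of 15. The count of called member probe sets was 0 by limma with the 18S covariate (5 at an unadjusted p under 0.05). It was also 0 with no replicate block for the pairing by line (0 at an unadjusted p under 0.05). The count of called listed genes, 17 in the report, was 6 with no filter, 11 with the filter at the 40th percentile, and 0 by limma with the 18S covariate (20 at an unadjusted p under 0.05) or with no replicate block (11). The share of all probe sets called was 0.00362% with the covariate and 0.0181% with no block. The cause was not tested where none is given. Signal over background is unknown for these ratios, so how far it limits the lowest TXNIP values cannot be given.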
